A study of Mus musculus with 10 samples.

Results

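Gas5 and 9 genes of the Snhg family, long RNAs that carry small nucleolar RNAs (snoRNAs) in their introns, were followed in 5 mouse small cell lung cancer (SCLC) lines with the MYCN transgene on or off. The members were chosen by symbol (Gas5, Snhg1, Snhg3, Snhg4, Snhg5, Snhg6, Snhg7, Snhg8, Snhg11 and Snhg12), and all 10 were found among the 24391 genes counted. The lines G4314, G9351, G9488, G9529 and G9577 came from mouse lung tumours and share 1 genotype, given as Rb;p53,TRE-MYCN, LSL-RTTA. TRE is a promoter driven by the tetracycline transactivator rtTA, so doxycycline keeps MYCN expressed; LSL marks an allele that Cre recombinase switches on, and the labels do not say in which cells. Each line gave 1 library with doxycycline (ON DOX, here "on") and 1 after 4 days without it (OFF DOX, here "off"), which makes 10 libraries of poly(A)-selected RNA and 5 pairs. Controls carry the same alleles and differ from the treated cells by the drug as well as by MYCN, so an effect of doxycycline itself cannot be told apart from one of the transgene. The labels name no repeat cultures, and the spread below is the spread between lines.

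A snoRNA host gene is spliced like a messenger RNA gene, and its product with the larger cellular role is often what lies in the introns: the snoRNAs are trimmed out of the excised introns, bound by proteins and sent to the nucleolus. Box C/D snoRNAs guide methylation of ribosomal RNA and box H/ACA snoRNAs guide its conversion to pseudouridine. Many hosts, Gas5 among them, begin with a terminal oligopyrimidine (TOP) start like that of ribosomal protein genes, hold only short reading frames, and are destroyed by nonsense-mediated decay while they are being translated. Gas5 was named for its accumulation in growth-arrested cells and has also been described as a decoy for the glucocorticoid receptor. Myc family proteins are known for driving genes of ribosome production, of which snoRNAs are a part.

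The starts of 6 members are shown because they cover the 3 outcomes found below: Gas5, Snhg1 and Snhg5 rose, Snhg8 and Snhg12 did not pass the test, and Snhg11 fell. Each stretch, from RefSeq on GRCm38.p6, runs from 50 bases before the start site to 20 bases from it onward. Capitals mark TATAA before the start, and a C followed by at least 4 pyrimidines that begins within 5 bases of the start.
Gas5 (chr1:161035116-161035185, plus strand): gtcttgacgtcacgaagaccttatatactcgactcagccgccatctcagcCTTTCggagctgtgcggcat
Snhg1 (chr19:8723437-8723506, plus strand): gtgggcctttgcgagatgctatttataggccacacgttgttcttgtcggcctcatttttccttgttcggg
Snhg5 (chr9:88522878-88522947, minus strand): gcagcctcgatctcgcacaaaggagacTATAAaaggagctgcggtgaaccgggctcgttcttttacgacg
Snhg8 (chr3:123508317-123508386, minus strand): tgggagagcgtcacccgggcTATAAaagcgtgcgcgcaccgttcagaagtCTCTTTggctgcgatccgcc
Snhg12 (chr4:132308628-132308697, plus strand): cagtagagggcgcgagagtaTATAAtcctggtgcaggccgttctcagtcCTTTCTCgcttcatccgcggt
Snhg11 (chr2:158375663-158375732, plus strand): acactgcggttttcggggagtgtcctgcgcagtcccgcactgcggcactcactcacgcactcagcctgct

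RefSeq start sites were at hand for 8 of the 10 members; Snhg4 and Snhg6 had no entry. Gas5 has 2 starts in RefSeq, and the one not printed, at chr1:161034601, has neither feature. A pyrimidine run at the start was found in 5 of these 8 (Gas5 at the start printed, Snhg3, Snhg7, Snhg8 and Snhg12), against 21.2% of 27025 genes. TATAA within the 50 bases before the start was found in 4 (Snhg5, Snhg7, Snhg8 and Snhg12), against 5.89% of genes. Each of these sets held members that rose and both members that were not called. The E-box letters CACGTG, searched on both strands from 250 bases before the start to 50 after it, were in none of the 8 windows, against 8.09% of genes. CATGTG was also in none of them, against 15.9% of genes, and CACGCG was in that of Snhg5 alone, against 10.5%.

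The snoRNAs themselves show what these genes carry. GENCODE on GRCm38 places 29 snoRNAs within 8 of the members (Snhg4 and Snhg7 were not found by name), of which 19 had the box C and box D letters, 7 ended in an H/ACA tail and 3 had neither. Gas5 holds 9, all of the C/D kind; Snhg1 holds 8, of which 6 had C/D letters; Snhg5 holds 2 and Snhg6 holds 1, all C/D. Snhg3 and Snhg11 hold 2 each and Snhg8 holds 1, all H/ACA, and Snhg12 mixes both kinds among its 4. Printed here are Snord47 of Gas5, Snord22 of Snhg1, the near-identical pair of Snhg5, and 1 of the pair in Snhg11, the member that fell. Snord47 and Snord22 were the 2 of 4 tested whose counted reads were called higher, with limits given below. Capitals mark TGATG (box C) and CTGA (box D), or the ACA of an H/ACA tail; Snord22 has no capitals because TGATG was not found in it.
Snord47 (Gas5, chr1:161038082-161038158, plus strand): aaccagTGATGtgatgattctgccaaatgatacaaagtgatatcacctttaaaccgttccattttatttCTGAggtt
Snord22 (Snhg1, chr19:8725866-8725991, plus strand): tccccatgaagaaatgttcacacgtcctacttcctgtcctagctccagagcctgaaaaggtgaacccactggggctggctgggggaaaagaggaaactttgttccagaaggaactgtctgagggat
Snord50a (Snhg5, chr9:88521529-88521600, minus strand): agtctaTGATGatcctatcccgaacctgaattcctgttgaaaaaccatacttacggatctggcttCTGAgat
Snord50b (Snhg5, chr9:88521797-88521868, minus strand): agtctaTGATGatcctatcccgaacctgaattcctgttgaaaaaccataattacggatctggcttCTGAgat
Gm25129 (Snhg11, chr2:158379534-158379666, plus strand): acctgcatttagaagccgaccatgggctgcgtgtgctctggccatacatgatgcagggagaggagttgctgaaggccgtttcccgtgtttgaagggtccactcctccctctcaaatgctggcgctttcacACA

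Library totals lay between 9586465 and 11960074 counted reads. The labels do not say whether the transgene is mouse or human MYCN, so reads counted for mouse Mycn check it only as far as they come from it. Mycn was higher in every on library of a line than in its off partner (log2 change 2.86, SE 0.38, adjusted p = 0.00421, edgeR quasi-likelihood test with line as a block). Its relative Myc fell by 2.64 on the log2 scale (SE 0.30, adjusted p = 0.00339). Of 12835 genes tested, 15.3% were called higher and 15.6% lower with MYCN on at an adjusted p below 0.05, and the median log2 change was -0.08. One line carried few of the markers of the labelled tumour type: the summed level of 10 neuroendocrine markers was 224 CPM (reads of a gene scaled to the size of its library) on and 174 off in G9577, against 3266 to 6568 in the other lines, and Grp was at 0 there. Most of that sum was Ncam1 (99.8 CPM on and 125 off) and Uchl1 (118 and 17.3). Mesenchymal or non-neuroendocrine markers summed to 3006 and 7241 CPM in G9577, against 55.6 to 179 elsewhere, and the summed blood and endothelial markers were 2.72 to 6.55 CPM in all 10 libraries.

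Most of the host genes were more abundant with MYCN on. Of the 10 members, 7 rose (Gas5, Snhg1, Snhg3, Snhg4, Snhg5, Snhg6 and Snhg7), a share to be read against 15.3% of all genes called higher. Snhg11 fell, against 15.6% called lower, and Snhg8 and Snhg12 did not pass the test. The median log2 change of the 10 was 1.05, against -0.08 over all genes tested. Without G9577 the same counts were found, 7 higher and 1 lower. These are bulk libraries, in which fewer cells of a type and less RNA per cell cannot be told apart.

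The direction held line by line. In all, 8 members (the 7 that rose, and Snhg12) were higher on than off in each of the 5 lines, which 20.9% of all genes also were. In 6 members (Gas5, Snhg3, Snhg4, Snhg5, Snhg6 and Snhg7) every on library lay above every off library, against 6.35% of all genes. The summed level of the 10 members was 483 CPM on and 255 off in G4314, 417 and 271 in G9351, 535 and 327 in G9488, 446 and 220 in G9529, and 478 and 235 in G9577. The sum was thus 1.54 to 2.04 times higher on than off, and Gas5 alone made up 29.5% to 40.9% of it on and 20.6% to 34.3% off.

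**Figure D1:**
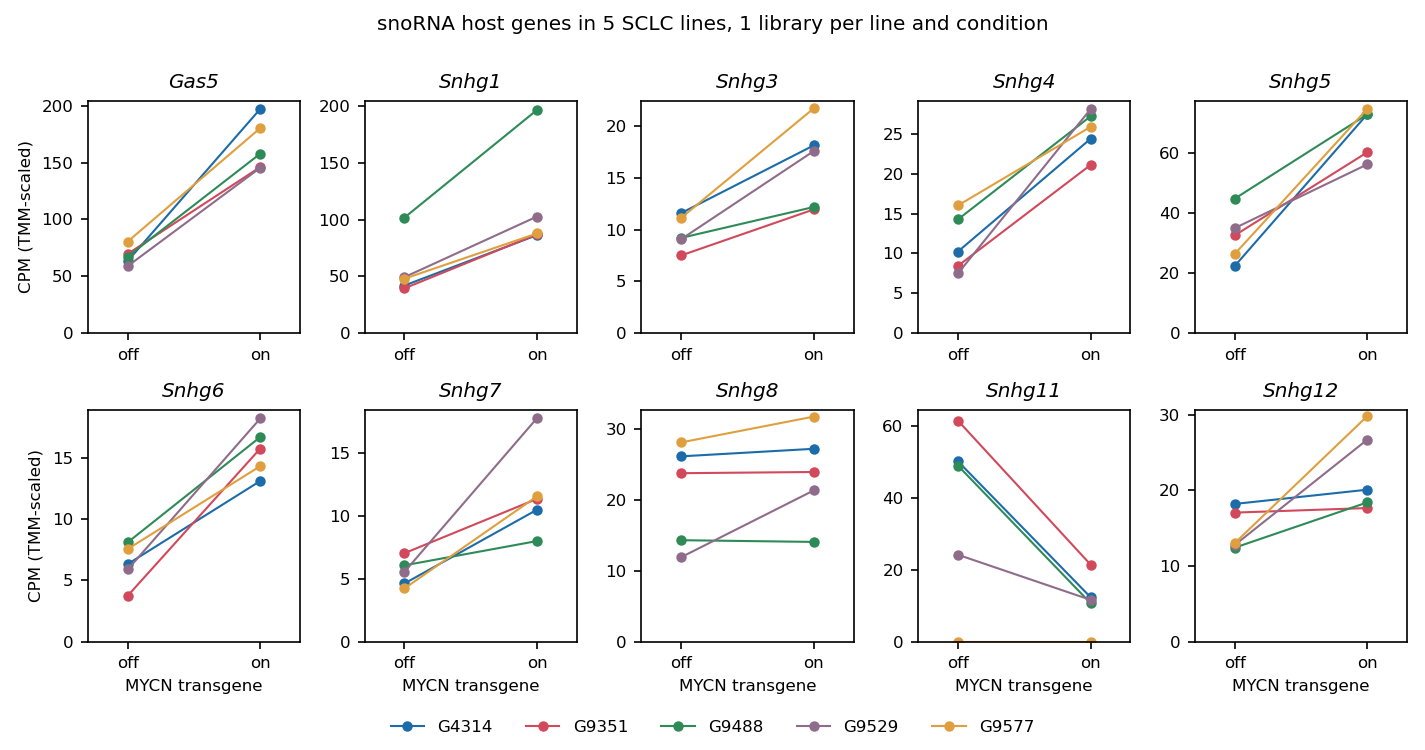
Level of each of the 10 host genes (CPM, y axis from 0, 1 panel per gene) with MYCN off and on; each line joins the 2 libraries of 1 cell line. In all, 8 genes climb in all 5 lines, Snhg8 is nearly flat in 4 of them, and Snhg11 drops in the 4 lines that express it.

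Gas5, host of box C/D snoRNAs, had the highest mean CPM of the members when MYCN was on. In the on libraries of G4314, G9351, G9488, G9529 and G9577, in that order here and below, it measured 197, 146, 158, 145 and 180 CPM. The off libraries gave 63.4, 69.6, 67.3, 58.9 and 80.5 CPM. The lowest on library was well above the highest off library, and the spread within each condition was small (165 ± 22.7 on and 67.9 ± 8.11 off, mean ± SD, n = 5). The fitted log2 change was 1.28 (SE 0.12, adjusted p = 0.00265), a 2.43-fold difference, with single lines between 1.07 and 1.63. In the mm9 models used for counting (chr1:162965297-162968668, plus strand), Gas5 has 4 exons, and 1 of them spans 2382 of the 2554 exonic bases, so reads from sequence that other models splice out were counted with it.

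Snhg1, the host of the U22 snoRNA (Snord22) and of several others, rose about as much but from levels that differed between lines. It measured 86.4, 87.1, 197, 103 and 87.9 CPM on and 41.9, 39.5, 102, 49.3 and 48.0 CPM off. G9488 stood above the other lines in both conditions, so that the groups overlapped: its off level exceeded 3 of the 5 on levels. Within lines the change was the most even of all members, between 0.87 and 1.14 on the log2 scale, and the fit gave 1.01 (SE 0.11, adjusted p = 0.00304). The gene lies at chr19:8797977-8800816 (mm9, plus strand) and has 10 exons with only 476 exonic bases.

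Snhg5 and Snhg6, both with C/D cargo, rose too. Snhg5 (chr9:88415891-88417735, minus strand, 5 exons), which carries the Snord50 pair shown above, measured 73.1, 60.4, 73.1, 56.4 and 74.9 CPM on and 22.4, 32.6, 44.9, 35.0 and 26.4 off. The groups did not overlap, and the log2 change of 1.09 (SE 0.20, adjusted p = 0.00904) was largest in G4314 and smallest in G9529. Snhg6 (chr1:9932106-9934199, minus strand, 4 exons), host of Snord87, measured 13.1, 15.8, 16.7, 18.2 and 14.3 CPM on and 6.34, 3.75, 8.12, 5.90 and 7.57 off. Its groups were also separate, and its log2 change of 1.34 (SE 0.24, adjusted p = 0.00916) was the highest of the 10. However, its interval overlapped those of all other members that rose and that of Snhg12.

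Among hosts of H/ACA snoRNAs, 3 rose. Snhg4 (chromosome 18, plus strand, 4 exons), host of Snora74a, measured 24.4, 21.1, 27.2, 28.1 and 25.9 CPM on and 10.2, 8.44, 14.3, 7.48 and 16.03 off. No on library fell within the off range, and the log2 change was 1.22 (SE 0.22, adjusted p = 0.00895). Snhg7 (chr2:26492696-26495764, minus strand, 4 exons), host of Snora17 and Snora43, measured 10.5, 11.3, 7.99, 17.8 and 11.6 CPM on and 4.62, 7.03, 6.06, 5.55 and 4.23 off. The groups were separate by a narrow gap, with G9488 lowest among the on libraries, and the log2 change was 1.08 (SE 0.26, adjusted p = 0.0211). Snhg3 (chr4:131907848-131909601, minus strand, 3 exons), host of the Snora73 pair, measured 18.1, 11.9, 12.2, 17.6 and 21.7 CPM on and 11.6, 7.50, 9.19, 9.07 and 11.1 off. The lowest on library was barely above the highest off library, and the log2 change of 0.73 (SE 0.19, adjusted p = 0.0258) was the smallest among the members that rose. The calls for Snhg3 and Snhg7 were lost when G4314, G9351 or G9529 was left out (adjusted p at most 0.141 for Snhg3 and 0.0749 for Snhg7 over all alternatives).

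**Figure D2:**
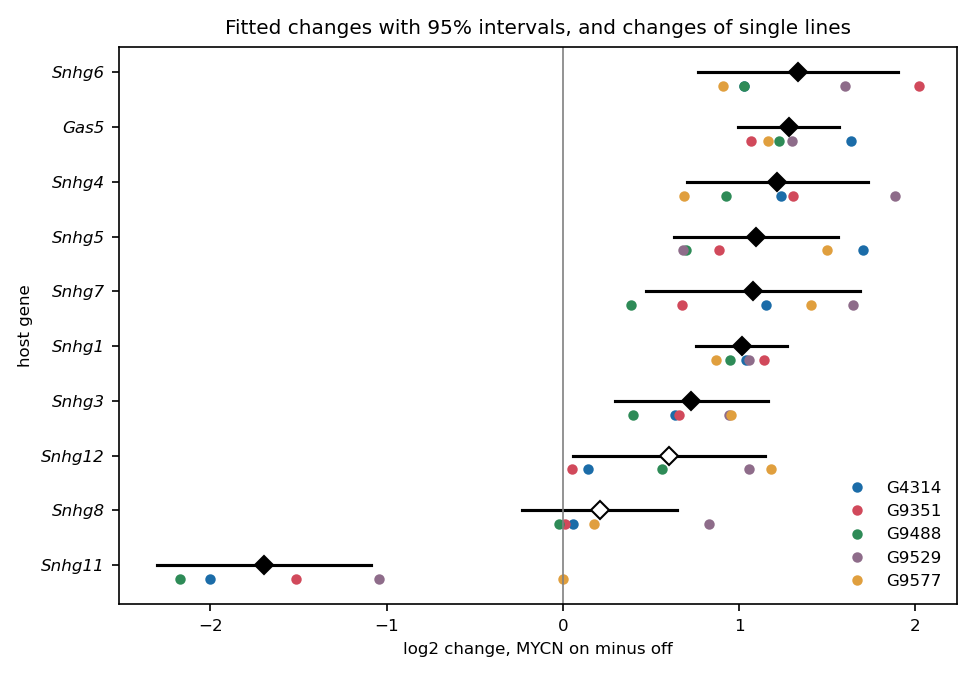
Fitted log2 change of each host gene, on minus off (x axis), as diamonds with 95% intervals (filled where the adjusted p was below 0.05), with the changes of the 5 single lines as coloured points beneath. On the right of 0 lie 7 filled diamonds, Snhg11 lies at -1.69, and the interval of Snhg8 spans 0; the Snhg11 point of G9577 at 0 is a line with no reads.

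Snhg12 and Snhg8 did not pass the test. Snhg12 (chr4:131864593-131866939, plus strand, 5 exons), which lies near Snhg3 on chromosome 4 and carries snoRNAs of both kinds, measured 20.1, 17.7, 18.4, 26.7 and 29.8 CPM on and 18.2, 17.1, 12.4, 12.8 and 13.0 off. G9529 and G9577 parted clearly while G4314 and G9351 barely moved. Its log2 change was 0.60 (SE 0.23, 95% interval 0.06 to 1.15, adjusted p = 0.0850). Snhg8 (chr3:123210470-123211254, minus strand) is a single exon in these models and shares 130 bases, the whole of it, with its H/ACA snoRNA, Snora24. No setting was given to count reads shared by genes. The count of 0 for Snora24 in every library thus does not measure its level. Snhg8 measured 27.1, 23.9, 14.0, 21.3 and 31.7 CPM on and 26.1, 23.7, 14.3, 11.9 and 28.1 off. The 2 ranges overlapped almost wholly, and G9529 was the only line with a clear difference. The fitted change was 0.21 (SE 0.19, adjusted p = 0.412), and its 95% interval of -0.23 to 0.65 lies below that of Gas5 (0.99 to 1.57).

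Because Snhg8 and Snhg12 stood apart, their changes were set against that of Gas5 within lines, a comparison chosen after the values were seen. The log2 change of Gas5 exceeded that of Snhg8 in 5 of 5 lines, by 1.07 ± 0.41 (mean ± SD, n = 5, exact sign permutation p = 0.0625, two-sided, the smallest that 5 lines can give). Against Snhg12 it was larger in 4 of 5 lines, by 0.68 ± 0.60, and in G9577 the 2 changes were level (-0.02).

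Snhg11 was the exception in direction. Its transcript is the longest of the 10 (5864 exonic bases, chr2:158201374-158211881, plus strand), and the gene is known for expression in the nervous system. It measured 12.3, 21.4, 10.7 and 11.6 CPM on in G4314, G9351, G9488 and G9529, and 50.1, 61.4, 48.9 and 24.1 CPM off in the same lines. In these 4 lines all on values lay below all off values. G9577 had a count of 0 in both libraries, which allows up to 0.28 CPM on and 0.334 CPM off (3 counts per library, counting error only), so it added nothing to the fitted change of -1.69 (SE 0.25, adjusted p = 0.00689). Part of the neuroendocrine markers moved with it. The summed level of the 10 markers was 3266 to 4052 CPM on and 5108 to 6568 off in the 4 lines that express Snhg11. Of the 10, 6 were called lower (against 15.6% of all genes), Grp was called higher (1.31, SE 0.36, adjusted p = 0.0363), and Insm1 (0.08), Neurod1 (0.38) and Uchl1 (0.38) did not pass. Chga, a secretory granule protein, measured 293 to 556 CPM on and 951 to 1569 off in those lines, and 1.21 and 11.8 in G9577. The part of these markers in the fall of Snhg11 was not tested.

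Levels between genes were compared per kilobase of exon in the models used for counting. The place of Gas5 holds only for its model with the long exon described above. The 785 exonic bases of Snhg8 include the 130 shared with Snora24, so its level per kilobase can be too low. With MYCN off, Snhg1 was highest at 118 CPM per kb (range 82.9 to 214), above Snhg5 at 31.9 (22.2 to 44.4), Gas5 at 26.6 (23.1 to 31.5), Snhg8 at 26.5 (15.1 to 35.7), Snhg12 at 24.3 (20.5 to 30.04) and Snhg3 at 22.2 (17.2 to 26.5). The ranges of these 5 genes below Snhg1 overlapped, so their order is not resolved. Snhg6 at 15.6 CPM per kb, Snhg4 at 9.81, Snhg7 at 7.41 and Snhg11 at 6.29 followed, each overlapping its neighbour in the order. The mean of Snhg11 (range 0 to 10.5) includes G9577, which had no reads of it, and its last place off depends on that line. With MYCN on, Snhg1 stood at 236 CPM per kb (182 to 414), and Snhg5 at 66.9 and Gas5 at 64.7 (55.8 to 74.2 and 56.9 to 77.2) were next and not separable. Both were clear of the following group, which held Snhg6 at 38.5, Snhg3 at 37.3, Snhg12 at 37.2 and Snhg8 at 30.1. Snhg8 thus went from beside Gas5 off to below it in every library on, while Snhg4 at 22.0, Snhg7 at 15.9 and Snhg11 at 1.91 closed the order.

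Reads counted for the snoRNA genes themselves were few. Of the 4 that could be tested, 2 were called higher, against 15.3% of all genes tested, both in hosts that rose. Mature snoRNAs have no poly(A) tail, so in poly(A)-selected libraries such reads can also come from unspliced host RNA, and which of these they were was not tested. Introns of 6 members held 10 listed snoRNA genes, 4 of which passed the filter on low counts. Of these 4, Snord47, Snora61 and Snord99 reached 10 reads in every on library but not in every off library. They thus passed through their on libraries, where they were higher, which limits what their tests can show. Snord47, inside Gas5, had 42, 19, 53, 14 and 40 reads on and 11, 7, 17, 6 and 7 off (log2 change 1.74, SE 0.28, adjusted p = 0.00669). Snord22, inside Snhg1, had 109, 66, 272, 127 and 93 reads on and 50, 27, 156, 58 and 32 off (log2 change 1.16, SE 0.21, adjusted p = 0.00851). Both rose in every line, and G9488 was highest for each in both conditions.

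Snora61 and Snord99, inside Snhg12, did not pass the test (log2 changes 1.01, SE 0.56, and 0.63, SE 0.29, adjusted p = 0.201 and 0.133). They were higher on in 4 and 5 of the 5 lines. Snora16a and Snora44, also inside Snhg12 but too low to be tested, were higher on in 5 and 4 lines. Snora16a had 18, 9, 7, 19 and 23 reads on and 5, 4, 4, 7 and 3 off. Reads of the 4 snoRNA genes within Snhg12 summed to 57, 44, 39, 82 and 101 on and 26, 34, 46, 29 and 15 off, lower on in G9488 and higher on in the other 4 lines. Snord87 of Snhg6 had at most 11 reads in any library, and the pair in Snhg7 summed to 29, 17, 12, 35 and 24 reads on and 12, 7, 18, 9 and 6 off. In G9488 the snoRNA reads of Snhg12 and of Snhg7 were thus lower on, while the hosts themselves were higher on. These differences rest on few reads in a single pair of libraries (39 against 46 and 12 against 18) and were not tested. Over all 10 intronic snoRNA genes the sums were 250, 150, 391, 266 and 273 reads on and 103, 75, 244, 104 and 66 off, higher on in every line. These reads are not part of the host counts, since the 10 genes share no exonic base with their hosts. Set against those counts they came to 4.95 to 8.55 per 100 host reads on and 4.34 to 11.4 off, ranges that overlapped. Paired by line, the ratio was higher on except in G9488, which had the highest ratio in both conditions. That pattern was not tested.

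**Figure D3:**
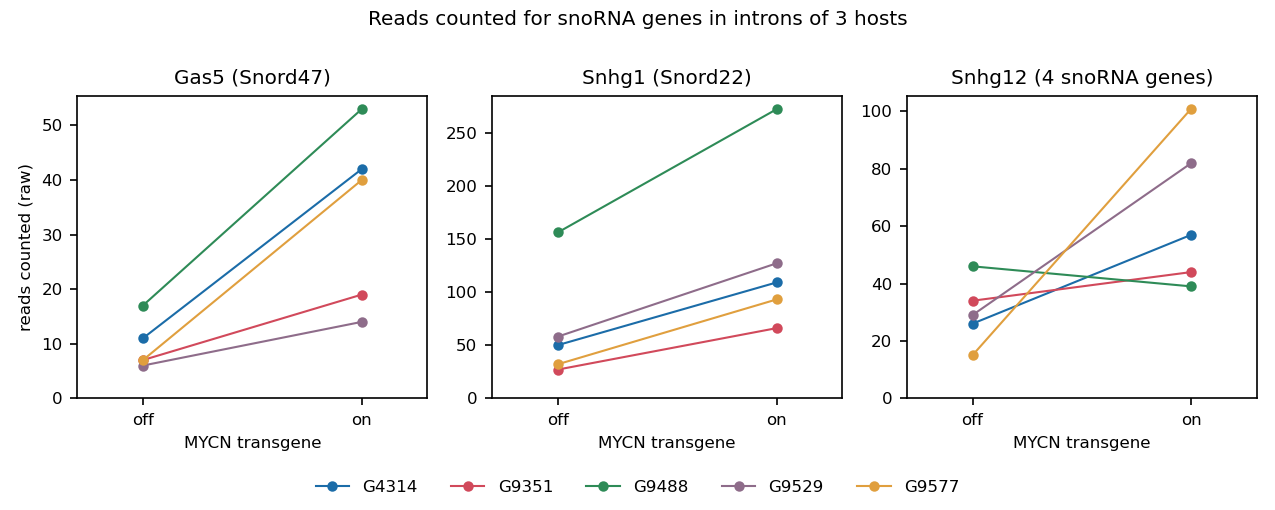
Raw reads counted for snoRNA genes in introns of Gas5, Snhg1 and Snhg12 (y axis from 0, 1 panel per host) with MYCN off and on, each line joining the 2 libraries of 1 cell line. Snord47 and Snord22 climb in all 5 lines, and the summed snoRNA genes of Snhg12 climb in 4.

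The other snoRNA hosts gave the members a point of reference. By annotated position, 69 further genes hold a snoRNA gene in an intron on their own strand, and 66 were tested. Of the 66, 43 rose, against 15.3% of all genes called higher, 2 fell (Dcaf5 and Rab3gap2) and 21 did not pass. Their median log2 change was 1.02, near the 1.05 of the members. Among the 21 tested hosts that encode ribosomal proteins, 19 rose and the median was 1.26, close to the 1.28 of Gas5. Rpl4, a protein of the large ribosomal subunit, was among those that rose (1.37, SE 0.13, adjusted p = 0.00265). In the other 45 tested hosts, 24 rose, 2 fell and the median was 0.70; Gnl3, which encodes nucleostemin, a nucleolar GTPase, stood on the log2 scale at 1.91 (SE 0.19, adjusted p = 0.003). Of 7 tested genes on a hand-drawn list of long noncoding hosts outside the members, only Snhg17 rose (1.24, SE 0.15, adjusted p = 0.00368). The other 6, among them Dancr (0.60, SE 0.34, adjusted p = 0.209), did not pass. That list was not complete, so its share says little about noncoding hosts at large. Hosts by position with clone names outside it went both ways, and whether they encode proteins was not checked. 1110038B12Rik (0.73, adjusted p = 0.0399), 2410002F23Rik (0.76, adjusted p = 0.0288) and 2700038G22Rik (1.07, adjusted p = 0.0285) rose. 1810032O08Rik (0.79, adjusted p = 0.0653) and AA465934 (-0.07, adjusted p = 0.747) did not pass.

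Most genes for the proteins that bind and assemble snoRNAs rose as well. Of 20 tested, 16 rose, against 15.3% of all genes called higher, with a median log2 change of 1.35. All core proteins of the C/D particle were among them: the methyltransferase Fbl (1.78, SE 0.18, adjusted p = 0.003), Nop56, Nop58 and Nhp2l1. So were those of the H/ACA particle: the pseudouridine synthase Dkc1, Gar1 (1.62, SE 0.17, adjusted p = 0.003), Nhp2 and Nop10 (1.63, SE 0.18, adjusted p = 0.00305). Ruvbl2, an ATPase of the assembly complex, stood on the log2 scale at 1.44 (SE 0.15, adjusted p = 0.003). The other 4, assembly or capping factors (Naf1, Znhit3, Pih1d1 and Tgs1), did not pass, with log2 changes between 0.16 and 0.37. Nop56 and Nop58 are themselves snoRNA hosts and were counted in both lists.

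**Figure D4:**
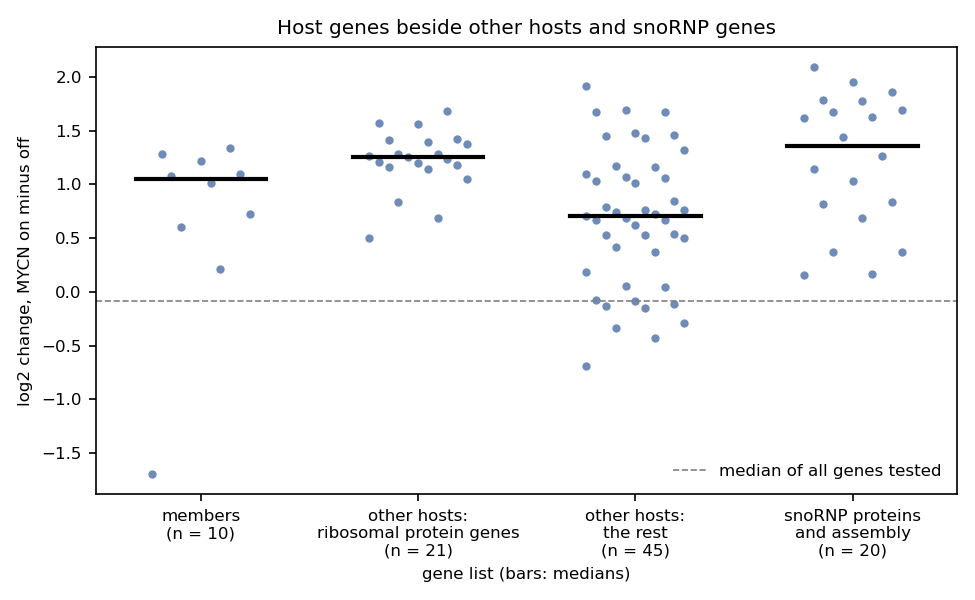
Log2 change, on minus off (y axis), of the 10 host genes beside other snoRNA hosts, split into 21 ribosomal protein genes and the other 45, and 20 snoRNP genes; each point is 1 tested gene, bars are medians and the dashed line is the median of all genes. The 4 medians lie between 0.70 and 1.35, and Snhg11 is the lowest point.

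Further lists bear on what is known of host RNA turnover and of Gas5. Among 17 genes of nonsense-mediated decay and the exon junction, 7 rose (median 0.27), against 15.3% of all genes called higher. Smallest in p were the release factor Etf1 (0.94, SE 0.14, adjusted p = 0.00554), the exon junction proteins Magohb (1.35, SE 0.22, adjusted p = 0.00668) and Magoh (0.77, SE 0.14, adjusted p = 0.00901) and the release factor Gspt1 (0.92, SE 0.17, adjusted p = 0.00978). Upf1, the central helicase of the pathway, did not pass (0.38, SE 0.16, adjusted p = 0.109). Among 15 regulators of TOP RNAs, 7 rose (median 0.13), against the same 15.3%. They included the TOP-binding protein Larp1 (1.01, SE 0.18, adjusted p = 0.00862), its relative Larp4 (1.06, SE 0.21, adjusted p = 0.0118), Cnbp (0.78, SE 0.13, adjusted p = 0.00778) and the translation repressor Eif4ebp2 (0.85, SE 0.14, adjusted p = 0.00717). The call for Larp4 was lost without G4314 or G9351 (adjusted p = 0.0513 and 0.0505). Eif4ebp1 had the largest change of the list (2.83, SE 0.71, adjusted p = 0.0245), with single lines between 0.83 and 4.93. Mtor itself, the kinase upstream, stood on the log2 scale at 0.04 (SE 0.10, adjusted p = 0.754).

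The glucocorticoid receptor gene Nr3c1 moved opposite to Gas5, by -0.58 (SE 0.14, adjusted p = 0.0225), and of 7 of its known targets Sgk1 fell by 1.33 on the log2 scale (SE 0.34, adjusted p = 0.026). The calls for Nr3c1 and Sgk1 were lost without G4314 (adjusted p = 0.0759 and 0.0834) or G9351 (0.0728 and 0.0653), and that for Nr3c1 without G9488 (0.0764). The other 6 targets did not pass, with Fkbp5 at 0.44 (SE 0.17, adjusted p = 0.0905) and Zbtb16 at -1.38 (SE 0.52, adjusted p = 0.0812) pointing opposite ways. The 4 other genes named for growth arrest that were tested did not share the pattern of Gas5. Gas2, Pmp22, Gas6 and Gas8 had log2 changes between -0.75 and 0.15 and adjusted p of 0.148 or more. Gas1 and Gas7 did not pass the filter on low counts. In G9577 they had 634 and 9 reads on, against 5729 and 310 off, and at most 7 reads in any library of the other lines.

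The nearest genes on either side, within 10 kb, numbered 12. Of the 10 tested, 4 rose, against 15.3% of all genes called higher, with a median log2 change of 0.56. Zbtb37, which starts 907 bases from Gas5 on the opposite strand, stood on the log2 scale at -0.06 (SE 0.38, adjusted p = 0.922). Slc3a2, an amino acid transporter subunit whose start lies 118 bases from that of Snhg1, was at 1.06 (SE 0.49, adjusted p = 0.136). Without G9577, where it was lower on, Slc3a2 rose by 1.54 (adjusted p = 0.0109). Wdr74, a ribosome assembly factor downstream of Snhg1, rose by 1.15 (SE 0.16, adjusted p = 0.00431). Rcc1, a chromatin-bound exchange factor beside Snhg3, rose by 1.41 (SE 0.41, adjusted p = 0.0381), and Fam69b beside Snhg7 rose by 1.05 (SE 0.33, adjusted p = 0.0466). Of the calls for Wdr74, Rcc1 and Fam69b, only that of Wdr74 held with each line left out: Rcc1 and Fam69b lost theirs without G4314, G9351, G9488 or G9529 (adjusted p from 0.0559 to 0.0994 and from 0.0931 to 0.146). Matr3 beside Snhg4, Phactr4 beside Snhg3, Trnau1ap beside Snhg12 and Prss12 beside Snhg8 did not pass (log2 changes from -0.06 to 0.32). Counting ignored strand, but apart from the overlap of Snhg8 with Snora24 no member shared exonic bases with another counted gene.

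Across the 10 libraries the genes most like Gas5 were Rps3 (Pearson r = 0.955 of log2 CPM), Psma6 (0.954), Acly (0.949), Rpl35a (0.948) and Rps19 (0.947), of which 3 encode ribosomal proteins. Snhg4 was the closest member, at r = 0.913 and rank 49 of 12834 genes, followed by Snhg5 (0.885) and Snhg6 (0.870). Snhg1 was at 0.681, Snhg8 at 0.361 and Snhg11 at -0.364. These correlations describe 10 libraries that share lines and the same 2 conditions, and they carry no test.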

How the data were processed

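Raw counts per gene were deposited by the authors, 1 file per library. The tools were bcl2fastq 1.8.4, STAR 2.5.2a and featureCounts 1.6.0, with mm9 as the build, per the submitters' processing notes. Per the file headers, counting ignored strand and no setting was given to include multi-mapped reads or those shared by genes; per the labels' protocols, poly(A) RNA was selected with oligo-dT and NEBNext Ultra libraries were made. Here, genes passing a minimum count of 10 (12835) were fitted with edgeR 4.0.16 in R 4.3.3 (TMM, quasi-likelihood F test, line as a block, Benjamini-Hochberg over all genes tested, threshold 0.05). CPM used the TMM-scaled library size, and the change of a single line is log2 CPM on minus off, at a prior count of 2. Intervals use the t distribution of the fit. The same-named lines pair the libraries: after removal of condition means, the 2 libraries of a line correlated at 0.721 to 0.873 and libraries of different lines at 0.273 at most. No 2 libraries were identical. The fit was also run on simulated counts with a smaller spread and fewer changed genes than these data, which checks the code and not the calls made here. Alternatives were a fit without the block, DESeq2 1.42.0, limma-voom (limma 3.58.1), other scalings and filters, and each line left out.

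The members and gene lists were chosen with earlier results of these data known. All members and their neighbours, Mycn, Myc, the up to 4 genes of smallest p among those called in each list, Nr3c1 and the 5 genes most like Gas5 were named by rule; other genes were named after their values were seen. Some genes that the rule names are not reported here. Promoters are from RefSeq and snoRNAs from GENCODE M21, both on GRCm38; counting coordinates are mm9.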

Additional observations from a re-analysis of the deposited data

Results flagged for a closer look

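Of 30 groups of 5 values tested (levels on, levels off and single-line changes of the 10 members), 3 held a value whose gap to its nearest neighbour exceeded 0.71 of the range, and chance gives about 1 in 20. Snhg1 in G9488 was far above the other lines in both conditions, at 197 CPM on (others 86.4 to 103) and 102 CPM off (others 39.5 to 49.3), while its change in that line, 0.95 on the log2 scale, lay within the range of the others. The log2 change of Snhg8 in G9529 was 0.83, against -0.02 to 0.17 in the other lines.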

How the results depend on the processing

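No direction of a member turned under any of 12 alternatives. Gas5, Snhg5 and Snhg6 stayed called in all of them, and Snhg8 and Snhg12 in none. Without the line as a block, which leaves the pairing unused, 274 genes were called in place of 3973 (215 higher and 59 lower). The members were then 3 higher and 0 lower (Snhg1, Snhg3, Snhg4, Snhg7 and Snhg11 lost their calls; 8 members had an unadjusted p below 0.05), the other hosts 16 higher and 0 lower, and the snoRNP genes 8 higher. Other hosts called lower numbered 1, in place of 2, with library size alone as the scaling and with no filter on low counts. With each line left out in turn, 1729 to 4493 genes were called, and 0 to 2 other hosts fell; members called higher ranged from 5 to 7, with Snhg3 and Snhg7 lost as given above. Slc3a2 passed with DESeq2 (adjusted p = 0.0423). Of the 10 intronic snoRNA genes, 4 had enough reads to be tested. With 5 lines and 1 library per line and condition, p-values measure the spread between lines, not between cultures.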

Other observations

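The high level of Snhg1 in G9488 was shared by a neighbour and by another host gene. Wdr74, which lies downstream of Snhg1 on the same strand, was also highest in G9488 (148 CPM on and 70.8 off, against 46.8 to 90.6 and 25.2 to 31.4 in the other lines). Slc3a2, on the other side of Snhg1, was not (297 CPM on and 100.4 off in G9488, against 172 to 479 and 93.5 to 542). Snhg17, on another chromosome, was highest in G9488 too, at 98.9 CPM on and 53.6 off, against 54.6 to 68.0 and 22.7 to 27.1.

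Over all 114 snoRNA genes in the files, the summed level was higher on than off in each of the 5 lines: 121 against 55.8 CPM in G4314, 89.5 against 47.2 in G9351, 149 against 85.2 in G9488, 128 against 56.8 in G9529 and 123 against 62.9 in G9577. Of the 30 that were tested, 13 were called higher, against 15.3% of all genes tested, and the median log2 change was 1.001. A gene with few reads can pass the filter on low counts through a single condition, so the count and the median describe only these 30.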
